A study of Mus musculus with 12 samples.

Results

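The mitochondrial ribosomal protein genes are the nuclear genes with symbols that begin with Mrpl or Mrps and a number, and 75 of the 15663 genes in the joined tables met that rule. Names that contain -ps were left out. RNA was sequenced from embryonic day 9.5 mouse hearts of the strain labelled C57/BL 6, in 12 libraries, 3 in each of 4 genotype groups. The double mutant carried NkxCre.Asb2fl/fl.Flnafl/fl, the Asb2 cKO carried NkxCre.Asb2fl/fl, the group called Flna-labelled here carried NkxCre.Asb2fl/+.Flnafl/fl, and the control carried NkxCre.Asb2fl/+. All groups therefore carried NkxCre and at least 1 floxed Asb2 allele, the control included. Asb2 encodes a subunit of a ubiquitin ligase and Flna the actin-binding protein filamin A. The labels do not say in which heart cells the Cre is active, or whether a library held 1 embryo or a pool.

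Mitochondria keep their own ribosome, which translates the few membrane proteins of the respiratory chain that the mitochondrial genome encodes. Its RNAs come from that genome, while its proteins are made in the cytosol from nuclear genes and imported. Many of these proteins descend from bacterial ribosomal proteins and others occur in mitochondria alone. The heart depends heavily on respiration, and in human patients defects in several of these genes, MRPL3, MRPL44 and MRPS22 among them, are known causes of heart muscle disease.

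Of the 75 genes, 48 encode proteins of the large subunit and 26 of the small subunit. The remaining one, Mrps36, carries the family name but encodes a subunit of the 2-oxoglutarate dehydrogenase complex. All 75 had reads in every library and passed the filter of a mean of 1 CPM in every comparison. The libraries held 25954539 to 42473118 reads in listed genes. CPM are the authors' counts divided by a scaled library size, and 1 read was worth 0.0239 to 0.038 CPM. Asb2 stood at 122, 121 and 153 CPM in the double mutant, 77.8, 163 and 115 CPM in Asb2 cKO hearts, 125, 113 and 197 CPM in Flna-labelled hearts, and 289, 183 and 218 CPM in the control. Flna stood at 1012, 1012 and 1146 CPM in the double mutant, 1032, 869 and 725 CPM in Asb2 cKO hearts, 958, 1011 and 990 CPM in Flna-labelled hearts, and 490, 554 and 721 CPM in the control. Asb2 was below every control library in all 6 Asb2fl/fl libraries, but also in Flna-labelled libraries 1 and 2, which carry Asb2fl/+ and lay within the range of the Asb2 cKO. Between the double mutant and the Flna-labelled group Asb2 overlapped, at -0.10 ± 0.21 (log2 ± SE; limma, adjusted p = 0.74). Asb2 RNA thus does not separate that pair, and Flna was not lower in the libraries labelled Flnafl/fl, so directions drawn from either contrast rest on the labels. The labels give no sex of the embryos, and Xist, the RNA of the inactive X, stood at 0.05 to 9.34 CPM in the double mutant, 0.38 to 571 in the Asb2 cKO, 0.05 to 0.37 in Flna-labelled hearts and 0.82 to 302 in the control. Xist was thus at most 9.34 CPM in every library labelled Flnafl/fl and reached far higher levels in both groups without that label. Xist and the Y-linked genes Ddx3y, Eif2s3y, Kdm5d and Uty together summed to 197 to 227 CPM in the double mutant. They summed to 170 to 172 CPM in Flna-labelled hearts, 212 to 624 in the Asb2 cKO and 163 to 302 in the control. With Xist that low, every library labelled Flnafl/fl held RNA of Y-linked genes. Embryo sex and the Flna label therefore cannot be fully told apart. Cardiomyocyte markers were abundant in all groups, with 10 genes summing to 27034 to 42036 CPM in the double mutant, 23108 to 38846 in the Asb2 cKO, 17461 to 32368 in Flna-labelled hearts and 28067 to 43073 in the control.

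The mitochondrial ribosomal protein genes were lower in hearts with both Asb2 alleles floxed. Their summed level was 3180, 3297 and 2893 CPM in the double mutant, 3075, 2704 and 3411 CPM in Asb2 cKO hearts, 3843, 3938 and 4100 CPM in Flna-labelled hearts, and 5046, 4881 and 3952 CPM in the control. All 6 libraries of the double mutant and the Asb2 cKO lay below all 6 of the other groups, and control library 3 lay among the Flna-labelled libraries. In bulk hearts, fewer cells of a type and less RNA per cell cannot be told apart.

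**Figure D1:**
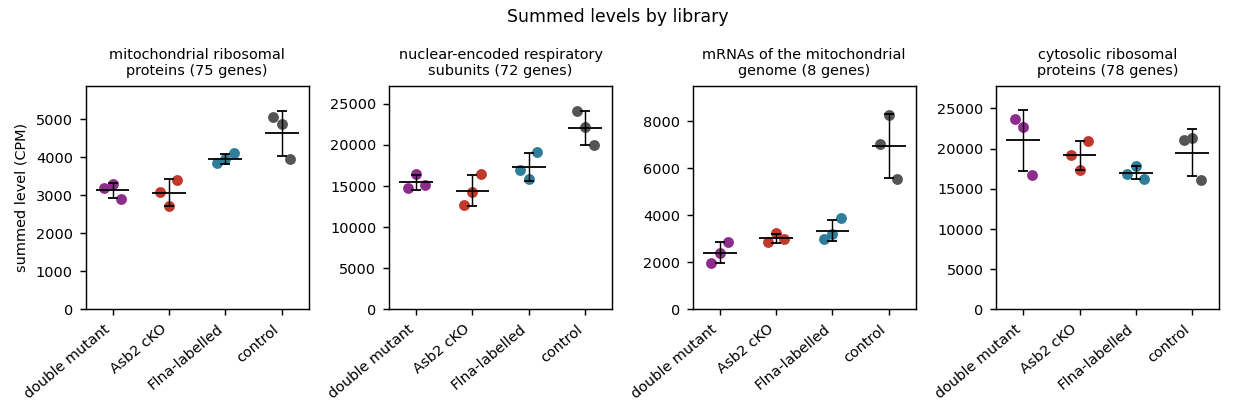
Summed level in CPM of 4 gene lists, with 1 point per library, a line at the group mean and bars of 1 SD (n = 3), for the double mutant, Asb2 cKO, Flna-labelled and control groups. The mitochondrial ribosomal protein genes sum to 2704 to 3411 CPM in the 2 groups with Asb2fl/fl and to 3843 to 5046 CPM in the other 2.

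In the Asb2 cKO against the control, 47 of the 75 genes fell and 0 rose, at an adjusted p under 0.05 (limma, Benjamini-Hochberg over all 14034 genes tested). Of all genes tested, 10.9% fell and 10.7% rose by the same rule. The members' median log2 fold change was -0.56, against -0.01 over all genes, and 74 of 75 lay below 0. The groups did not overlap, with every Asb2 cKO library below every control library, for 58 members and for 21.5% of all genes. The count depended on single libraries: 26 members were called without Asb2 cKO replicate 2, 19 without control replicate 1 and 18 without control replicate 2, with a median of -0.48, -0.53 and -0.55. No label says that the libraries came from separate animals, so the p-values reflect spread from library to library, which may be technical.

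The double mutant against the control gave 54 members that fell and 0 that rose, where 16.7% of all genes fell and 15.6% rose. The members' median was -0.57, against 0.01 over all 14015 genes, and 72 of 75 lay below 0. The groups did not overlap, in the lower direction, for 58 members and for 24.2% of all genes. This comparison uses the same 3 control libraries as the one before, so the 2 counts do not stand independently. With log2 Xist as a covariate in a joint fit of the 4 groups, 42 members fell in the double mutant and 57 in the Asb2 cKO, against 56 and 58 in the joint fit without it. Between the first 2 counts, 45 members were called in both, Mrpl39 and Mrpl52 in the Asb2 cKO alone, 9 in the double mutant alone and 19 in neither.

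**Figure D2:**
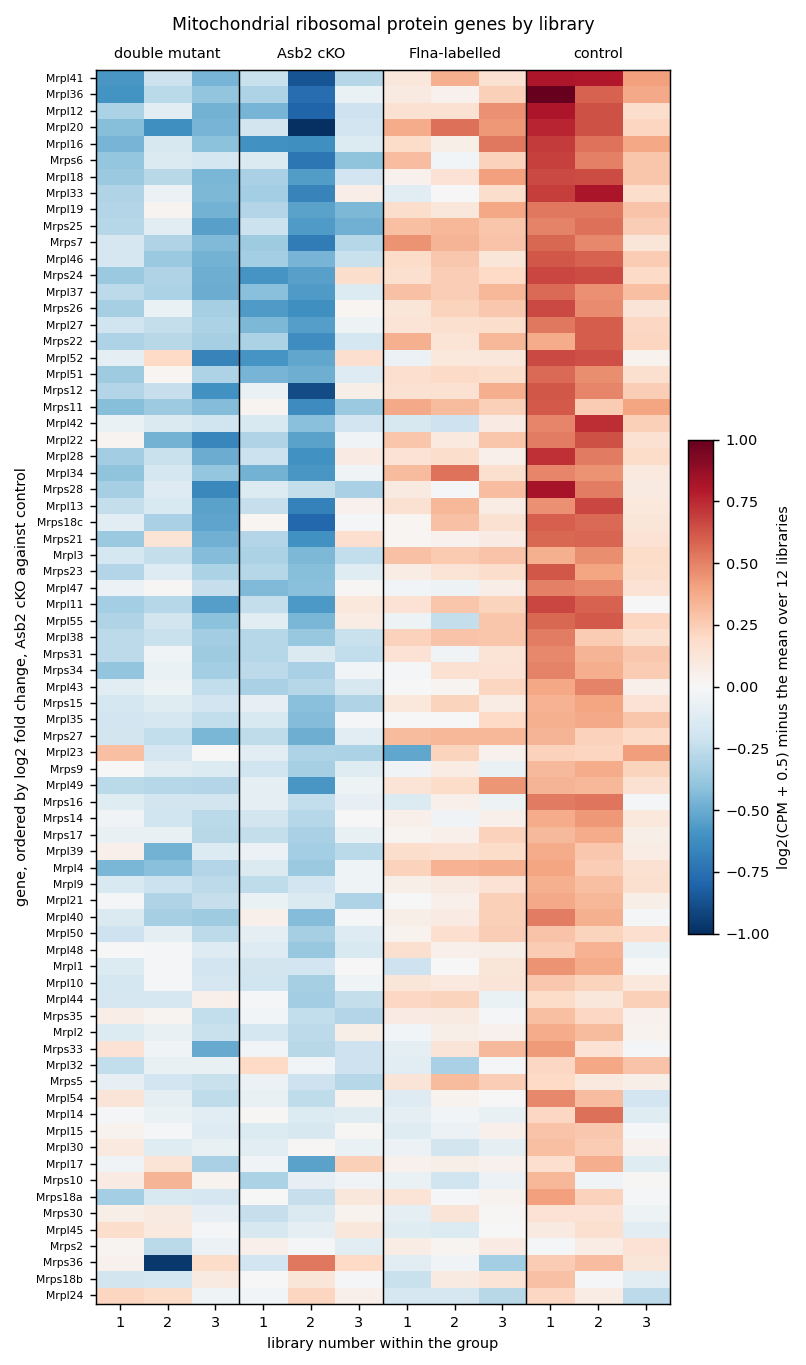
Log2(CPM + 0.5) of the 75 genes in the 12 libraries, each minus the gene's mean over all libraries, with red above and blue below that mean. Rows run from the largest fall in the Asb2 cKO against the control (Mrpl41, -1.13) to the single value above 0 (Mrpl24, 0.07), and control library 3 is paler than control libraries 1 and 2.

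The large and small subunit moved alike in counts. In the double mutant against the control 34 of 48 large-subunit genes and 20 of 26 small-subunit genes fell, with medians of -0.56 and -0.61. In the Asb2 cKO 29 of 48 and 18 of 26 fell, with medians of -0.55 and -0.58. Genes with a bacterial homologue and genes found in mitochondria alone also stood close together, with 34 of 44 and 17 of 26 lower in the double mutant and 27 of 44 and 18 of 26 lower in the Asb2 cKO. Differences between these classes were not tested.

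Mrpl41, a large-subunit protein that bacteria lack, showed the largest fold change of the family against the control. It had 20.4, 26.4 and 22.2 CPM in the double mutant, 26.4, 16.7 and 25.2 CPM in Asb2 cKO hearts, 33.4, 39.6 and 34.2 CPM in Flna-labelled hearts, and 54.3, 54.1 and 41.0 CPM in the control. Every library with Asb2fl/fl lay below every Flna-labelled library, which in turn lay below every control library. The log2 fold change against the control was -1.10 ± 0.15 (SE, n = 3 each) in the double mutant (limma, adjusted p = 0.0008). It was -1.13 ± 0.20 in Asb2 cKO hearts (limma, adjusted p = 0.0041). The gene (ENSMUSG00000036850) lies at chr2:24974117-24975098 on the minus strand of GRCm38.

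Mrpl36, the small zinc-binding protein of the large subunit, had 30.4, 38.1 and 34.9 CPM in the double mutant, 37.2, 27.1 and 44.0 CPM in Asb2 cKO hearts, 49.2, 47.6 and 54.4 CPM in Flna-labelled hearts, and 95.4, 69.8 and 60.1 CPM in the control. The order of the groups was that of Mrpl41, without overlap between the Asb2fl/fl libraries, the Flna-labelled libraries and the control. Mrpl36 fell by 1.09 ± 0.17 on the log2 scale in the double mutant (SE; limma, adjusted p = 0.0015) and by 1.05 ± 0.21 in Asb2 cKO hearts (adjusted p = 0.0073).

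The stalk of the large subunit recruits translation factors. Mrpl12, which forms it, was the most abundant member by CPM among those named here, with 135, 155 and 121 CPM in the double mutant, 122, 96.5 and 146 CPM in Asb2 cKO hearts, 187, 187 and 231 CPM in Flna-labelled hearts, and 295, 262 and 191 CPM in the control. Its log2 fold change against the control was -0.84 ± 0.16 in the double mutant (limma, adjusted p = 0.0046) and -1.03 ± 0.19 in Asb2 cKO hearts (adjusted p = 0.0054). Mrpl10 and Mrpl11 form the base of the stalk. Mrpl10 averaged 57.8 ± 3.56 CPM in the double mutant, 55.1 ± 5.61 in the Asb2 cKO, 68.2 ± 0.917 in Flna-labelled hearts and 72.3 ± 4.25 in the control (SD, n = 3 each), and passed in the double mutant (-0.32 ± 0.11, limma, adjusted p = 0.042) but not in the Asb2 cKO (-0.39 ± 0.13, adjusted p = 0.056). Mrpl11 passed in both, at -0.81 ± 0.17 in the double mutant (limma, adjusted p = 0.0071) and -0.65 ± 0.21 in the Asb2 cKO (adjusted p = 0.047).

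Mrpl16 and Mrpl3 sit near the site where peptide bonds form. Mrpl16 had 36.3, 45.0 and 37.8 CPM in the double mutant, 32.8, 32.8 and 45.7 CPM in Asb2 cKO hearts, 57.2, 52.4 and 72.7 CPM in Flna-labelled hearts, and 82.0, 73.5 and 66.1 CPM in the control. Its 6 Asb2fl/fl libraries all lay below the other 6, with the double mutant at 0.54 times the control (limma, adjusted p = 0.00097) and the Asb2 cKO at 0.50 times (adjusted p = 0.003). Mrpl3 had 72.6, 69.6 and 60.8 CPM in the double mutant, 66.0, 59.8 and 69.3 CPM in Asb2 cKO hearts, 101, 98.5 and 100.2 CPM in Flna-labelled hearts, and 105, 114 and 93.6 CPM in the control. Unlike Mrpl41, Mrpl3 overlapped between the Flna-labelled and control groups, and it fell by 0.62 ± 0.12 in the double mutant (log2; limma, adjusted p = 0.0037) and by 0.67 ± 0.13 in Asb2 cKO hearts (adjusted p = 0.0065).

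**Figure D3:**
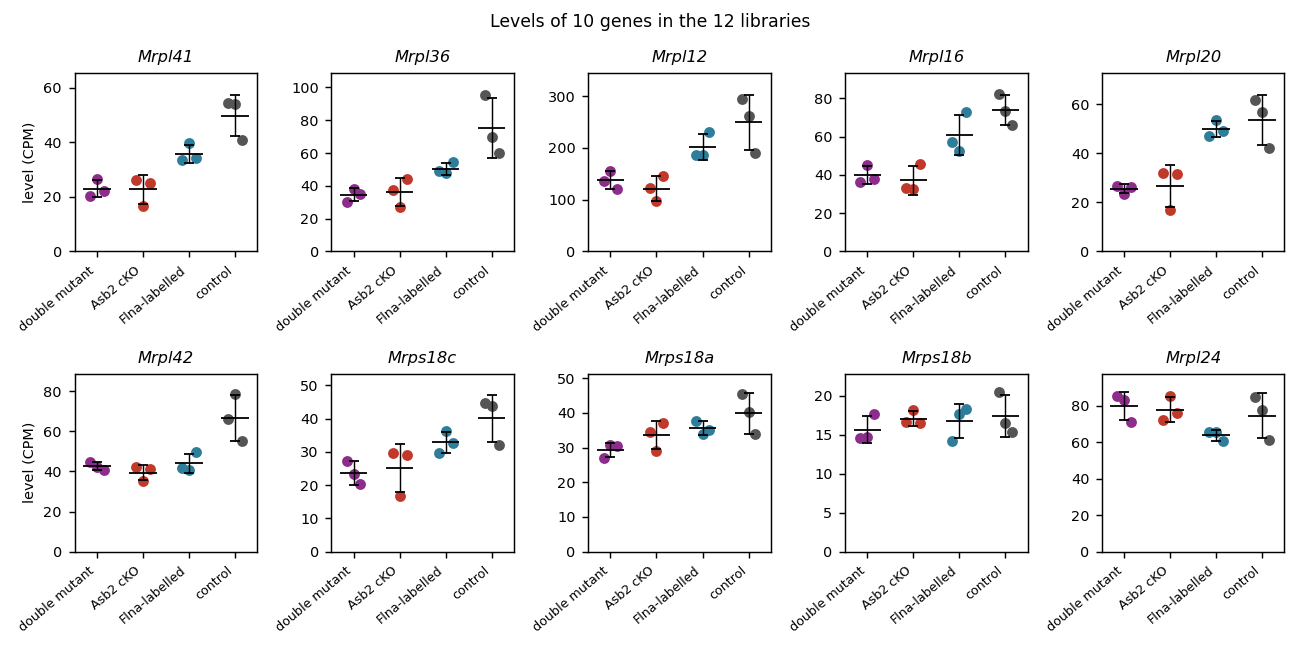
Level in CPM of 10 genes, with 1 point per library, a line at the group mean and bars of 1 SD (n = 3), on axes that start at 0. Mrpl41 and Mrpl36 have every Asb2fl/fl library below every Flna-labelled library, and these below every control library. In Mrpl12 and Mrpl16 every Asb2fl/fl library lies below the other groups, and control library 3 lies among the Flna-labelled libraries. Mrpl20 has Flna-labelled libraries (47.1 to 53.5 CPM) among the control libraries (42.2 to 61.8 CPM). Mrpl42 has Flna-labelled libraries (40.6 to 49.5 CPM) near the Asb2 cKO (35.0 to 42.0 CPM). Mrps18b and Mrpl24 overlap between the Asb2 cKO and the control.

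Other genes of the large subunit followed. Mrpl20, a structural protein with a bacterial homologue, had 26.9, 23.5 and 26.2 CPM in the double mutant, 31.9, 16.8 and 31.7 CPM in Asb2 cKO hearts, 47.1, 53.5 and 49.3 CPM in Flna-labelled hearts, and 61.8, 56.7 and 42.2 CPM in the control. Mrpl18, of the central protuberance, averaged 78.6 ± 5.07 CPM in the double mutant, 79.4 ± 10.2 in the Asb2 cKO, 117 ± 15.9 in Flna-labelled hearts and 148 ± 21.7 in the control (SD, n = 3 each). Mrpl19, which lies at the interface of the subunits, had the smallest p of the family in the Asb2 cKO, at -0.87 ± 0.13 (limma, adjusted p = 0.0021). Mrpl37 and Mrpl46, which bacteria lack, stood at -0.80 and -0.83 in the double mutant and at -0.82 and -0.83 in Asb2 cKO hearts (log2 fold changes). Mrpl28 and Mrpl55 were among the 12 smallest p of the double mutant against the control, at -0.83 and -0.76 (log2).

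In the small subunit, Mrps12, a protein of the decoding centre, averaged 25.4 ± 3.45 CPM in the double mutant, 27.8 ± 9.01 in the Asb2 cKO, 38.7 ± 3.37 in Flna-labelled hearts and 45.6 ± 6.00 in the control (SD, n = 3 each), and passed in both comparisons with the control. Mrps22, a small-subunit protein that bacteria lack, had 28.6, 29.3 and 28.2 CPM in the double mutant, 28.5, 23.0 and 31.4 CPM in Asb2 cKO hearts, 45.7, 39.2 and 45.0 CPM in Flna-labelled hearts, and 46.3, 54.5 and 41.3 CPM in the control. Here the Asb2fl/fl libraries formed 1 range and the other 6 libraries a second, higher one. Mrps7, of the head, fell by 0.70 ± 0.14 in the double mutant (log2; limma, adjusted p = 0.0047) and by 0.84 ± 0.16 in Asb2 cKO hearts (adjusted p = 0.0065). Mrps6, Mrps11, Mrps24 and Mrps25 stood at -0.72, -0.83, -0.89 and -0.74 in the double mutant and at -0.91, -0.75, -0.82 and -0.85 in Asb2 cKO hearts (log2 fold changes). Of the genes tied to human heart muscle disease, Mrpl44 was the one that passed in no comparison, at -0.28 ± 0.12 in the double mutant (limma, adjusted p = 0.10) and -0.38 ± 0.15 in the Asb2 cKO (adjusted p = 0.082).

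The 3 genes of the S18 family, descended from 1 bacterial protein, did not share 1 pattern of calls. Mrps18c had 27.3, 23.4 and 20.3 CPM in the double mutant, 29.7, 16.8 and 29.0 CPM in Asb2 cKO hearts, 29.8, 36.1 and 32.8 CPM in Flna-labelled hearts, and 44.7, 43.7 and 32.0 CPM in the control. Mrps18a, whose protein sits in the large subunit, averaged 29.3 ± 2.05 CPM in the double mutant, 33.5 ± 4.02 in the Asb2 cKO, 35.5 ± 1.97 in Flna-labelled hearts and 39.9 ± 5.86 in the control (SD, n = 3 each). Mrps18b averaged 15.6 ± 1.77, 17.1 ± 0.916, 16.7 ± 2.23 and 17.4 ± 2.68 CPM in the same groups. In the double mutant against the control Mrps18c (-0.75 ± 0.17) and Mrps18a (-0.43 ± 0.14) fell and Mrps18b (-0.15 ± 0.16) did not pass, with adjusted p of 0.0079, 0.038 and 0.52 by limma. Whether the 3 folds differ from each other was not tested.

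A group of 18 members fell in no comparison: Mrpl1, Mrpl14, Mrpl15, Mrpl17, Mrpl23, Mrpl30, Mrpl44, Mrpl45, Mrpl48, Mrpl54, Mrps2, Mrps10, Mrps18b, Mrps30, Mrps33, Mrps35, Mrps36 and Mrpl24. Mrpl24, at the exit of the peptide tunnel, passed only in the double mutant against the Flna-labelled group, where it rose. Mrps36, the dehydrogenase subunit, averaged 2.80 ± 1.23 CPM in the double mutant, 3.77 ± 1.05 in the Asb2 cKO, 2.82 ± 0.355 in Flna-labelled hearts and 3.84 ± 0.289 in the control (SD, n = 3 each). At that level the 95% interval of a member's fold change was wide, and a missed threshold does not show that a gene stayed level.

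The Flna-labelled group against the control gave 0 members past the threshold by limma, where 0.0432% of all genes fell and 0.0288% rose. At an unadjusted p under 0.05, 19 members were lower and 0 higher, against 6.8% of all genes lower and 6.31% higher. edgeR called 0 members and DESeq2 1. The members' median was -0.22, against 0.00 over all genes, 72 of 75 lay below 0, and the groups did not overlap for 19 members and for 8.71% of all genes. Mrpl42, a large-subunit protein that bacteria lack, had the smallest p, with 41.9, 40.6 and 49.5 CPM in Flna-labelled hearts and 65.9, 78.5 and 55.3 CPM in the control. Its log2 fold change was -0.58 ± 0.14 (limma, adjusted p = 0.27), and the authors' deposited table lists it at a logFC of -0.60 with an FDR of 0.0323. Mrpl33, Mrpl36, Mrpl41 and Mrps9 followed at -0.54, -0.55, -0.47 and -0.31 without passing. The count of 19 depended on single libraries. It was 44 without control replicate 3 (median -0.33), 7 without control replicate 1 (-0.14), 7 without control replicate 2 (-0.18), 11 without Flna-labelled replicate 1 (-0.19) and 10 without Flna-labelled replicate 2 (-0.21). With log2 Xist as a covariate in the joint fit it was 7, against 18 without the covariate. With the gene length trend removed it was 15, with 62 of 75 members below 0 and a median of -0.16.

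The double mutant and the Flna-labelled group differ in label by Asb2fl/fl against Asb2fl/+, with no difference in Asb2 RNA past the threshold. In the double mutant against the Flna-labelled group 38 members fell and 1 rose, where 16.3% of all genes fell and 15.1% rose. The median was -0.31, against -0.02 over all 13954 genes, and 66 of 75 lay below 0. The groups did not overlap, in the lower direction, for 47 members and for 25.1% of all genes. The count was 23 without Flna-labelled replicate 2, with a median of -0.33. Mrpl20 moved furthest, at -0.96 ± 0.11 (limma, adjusted p = 0.00054), with the 3 double-mutant libraries at 23.5 to 26.9 CPM and the 3 Flna-labelled libraries at 47.1 to 53.5 CPM. Mrpl4, of the tunnel wall, had 24.9, 25.6 and 27.9 CPM in the double mutant against 40.3, 43.9 and 44.2 CPM in Flna-labelled hearts, at -0.70 ± 0.10 (limma, adjusted p = 0.0018). Its groups were well apart there, while in the Asb2 cKO against the control it stood at -0.45 ± 0.15 (adjusted p = 0.05) and missed the threshold. Mrps27, Mrpl34, Mrpl38, Mrps7 and Mrps11 stood at -0.62, -0.66, -0.54, -0.66 and -0.72 (log2 fold changes).

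Mrpl24 was the exception that rose. It had 85.1, 83.2 and 71.3 CPM in the double mutant against 65.4, 65.4 and 60.4 CPM in Flna-labelled hearts, at 0.32 ± 0.10 on the log2 scale (limma, adjusted p = 0.037). The groups did not overlap, but the call was lost without any 1 of the Flna-labelled libraries and without double-mutant replicate 1 or 2. It was also lost with limma without trend or robust and in the joint fit of the 4 groups. Of the exon bases of Mrpl24, 26.3% overlap Rrnad1 on the opposite strand, and the counting is not stated to use strand. Against the control, at 84.9, 77.5 and 61.1 CPM, the double mutant stood at 0.11 ± 0.14 (adjusted p = 0.58).

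In the interaction, which asks whether the contrast of Asb2fl/fl with Asb2fl/+ differs with and without the Flna label, limma called 0 members in either direction, as for 0.0% of all genes. At an unadjusted p under 0.05, 6 members were higher and 0 lower, against 4.89% and 4.93% of all genes, and DESeq2 called 0. The members' median was 0.25 on the log2 scale, and no single member passed. Leaving out single libraries, the count of 6 became 25 without control replicate 3 (median 0.34), 16 without Asb2 cKO replicate 3 (0.29), 11 without Flna-labelled replicate 3 (0.23), 4 without control replicate 2 (0.20) and 3 without control replicate 1 (0.18), and 4 without Flna-labelled replicate 2 (0.24) or double-mutant replicate 2 (0.22). Mrpl42 stood furthest, at 0.70 ± 0.19 (adjusted p = 0.42), with -0.04 in the double mutant against the Flna-labelled group and -0.74 in the Asb2 cKO against the control. Mrps9, Mrpl47, Mrps10 and Mrpl30 came next, at 0.45, 0.57, 0.51 and 0.33.

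**Figure D4:**
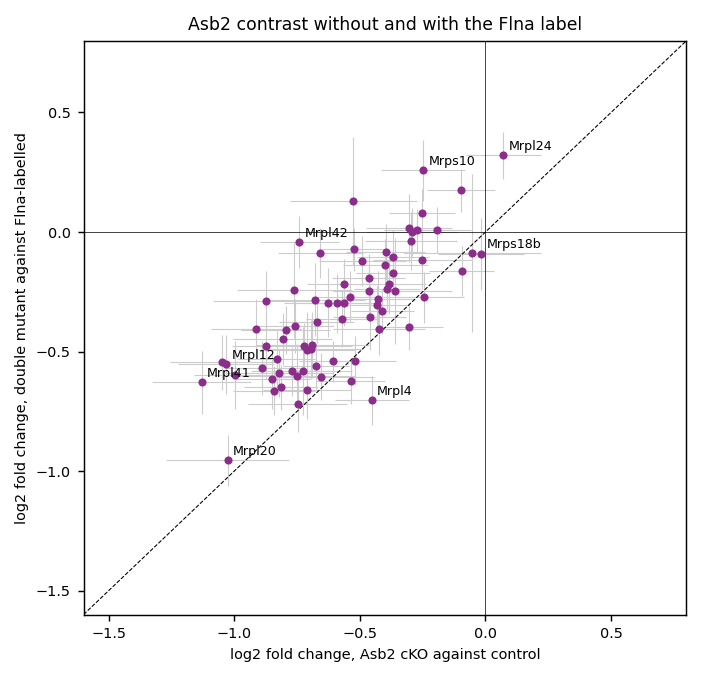
Log2 fold change of the 75 genes in the Asb2 cKO against the control (x axis) and in the double mutant against the Flna-labelled group (y axis), with bars of 1 SE and a dashed line of equality. Most genes lie below 0 on both axes and above the line, with medians of -0.56 on the x axis and -0.31 on the y axis.

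The double mutant against the Asb2 cKO gave 0 members past the threshold and 0 at an unadjusted p under 0.05 by limma, where 0.00712% of all genes fell and 0.0142% rose, and 1.77% and 1.59% were lower and higher at the unadjusted p. edgeR and DESeq2 also called 0. The median was 0.02, as over all 14037 genes (0.02). A member's 95% interval reached 0.33 to either side at the median, and for 55 of the 75 members the whole interval lay within 0.5 log2 units of 0. Values for the members with the smallest p were 0.30 ± 0.16 for Mrps10, -0.20 ± 0.14 for Mrpl4, -0.18 ± 0.14 for Mrps18a, -0.42 ± 0.35 for Mrps36 and 0.19 ± 0.16 for Mrpl47 (log2 ± SE). For the remaining 20 members a difference of 0.5 was inside the interval.

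**Figure D5:**
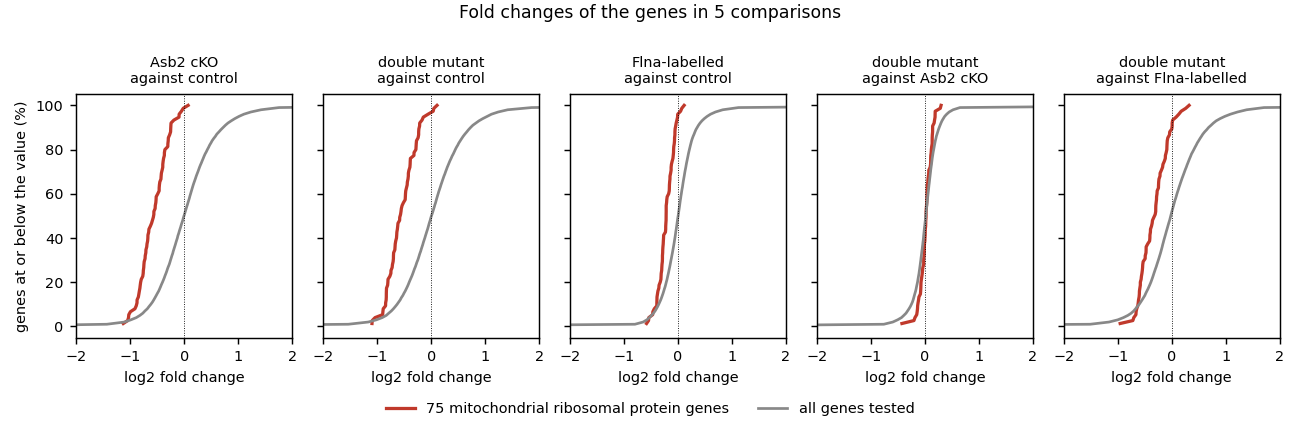
Share of genes at or below each log2 fold change in 5 comparisons, for the 75 mitochondrial ribosomal protein genes (red) and all genes tested (grey). At the medians the red curve lies left of the grey curve in the comparisons with the control and of the double mutant with the Flna-labelled group (medians -0.56, -0.57, -0.22 and -0.31). At the lowest values it lies right of the grey curve. In the Asb2 cKO, 1% of all genes stood at or below -1.43 and the lowest member at -1.13. The curves also cross in the double mutant against the Asb2 cKO (median 0.02).

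Levels within the family are compared per kilobase of the deposited gene length. Mean CPM per kilobase over the 12 libraries was highest for Mrpl52 (144), Mrpl12 (116), Mrpl18 (85.5), Mrpl34 (74.2) and Mrpl42 (72.9), and lowest for Mrpl23 (1.97), Mrps36 (2.26), Mrps10 (2.98), Mrpl48 (3.53) and Mrps33 (4.17). The lowest levels are uncertain, since Mrpl23, Mrpl48 and Mrps36 have pseudogene copies in the tables (Mrpl23-ps1 at a mean of 32.6 CPM, Mrpl48-ps at 10.2, Mrps36-ps1 at 7.84 and Mrps36-ps2 at 0.835) and how reads that fit both were counted is not known. Members were short, with a median length of 1718 bases against 3648 over all genes tested in the Asb2 cKO comparison. Across genes, the fold change in the Asb2 cKO correlated with log2 length at r = 0.20, a description over 14034 genes of the same libraries. With the length trend removed, 46 members fell in the double mutant (median -0.43) and 42 in Asb2 cKO hearts (median -0.45). In Flna-labelled hearts against the control r was 0.23, and the members' median was -0.16 with the trend removed.

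The starts of these genes were read to show what members that move together have in sequence. RefSeq windows of 280 bases, 250 before and 30 after the start (GRCm38.p6), were found for 66 members. The letters CCGGAAG, bound by the ETS factor GABPA, stood on either strand in 21 of 66 members (31.8%) and 9.48% of all genes with a window. AAGATGGC, bound by YY1, stood in 8 (12.1%) and 2.66%, and the palindromic motif of NRF1 in 3 (4.55%) and 1.02%. The E-box CACGTG stood in 5 (7.58%) and 7.71%. The first pair of motifs share the letters AAG where CCGGAAG runs into AAGATGGC, but 0 member windows held that joined run. A match is a description and not a site. The shares of all genes are over 27025 genes with a window, more than the 15663 genes measured here. The share among the genes measured here was not computed, so whether the motifs are particular to the family was not tested. The windows of 5 members are shown 5′ to 3′ on the gene's strand with matches in capitals, for Mrpl18 and Mrps22 (CCGGAAG), Mrpl36 (CACGTG, and AAGATGGC on the opposite strand), Mrpl41, which had the largest fold change, and Mrpl24, which rose in 1 comparison, with no match in the windows of Mrpl41 and Mrpl24.
Mrpl18, chr17:12916062-12916341, minus strand: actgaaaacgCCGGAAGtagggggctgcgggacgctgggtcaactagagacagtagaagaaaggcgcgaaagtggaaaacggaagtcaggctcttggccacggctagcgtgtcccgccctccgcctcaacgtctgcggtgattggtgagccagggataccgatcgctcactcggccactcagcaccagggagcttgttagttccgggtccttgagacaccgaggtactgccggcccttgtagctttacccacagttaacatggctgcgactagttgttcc
Mrps22, chr9:98601650-98601929, minus strand: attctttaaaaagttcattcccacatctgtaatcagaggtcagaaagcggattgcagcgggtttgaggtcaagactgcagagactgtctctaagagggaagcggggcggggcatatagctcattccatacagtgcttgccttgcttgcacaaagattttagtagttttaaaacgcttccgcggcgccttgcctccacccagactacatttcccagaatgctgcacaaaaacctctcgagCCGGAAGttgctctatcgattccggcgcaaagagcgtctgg
Mrpl36, chr13:73330759-73331038, plus strand: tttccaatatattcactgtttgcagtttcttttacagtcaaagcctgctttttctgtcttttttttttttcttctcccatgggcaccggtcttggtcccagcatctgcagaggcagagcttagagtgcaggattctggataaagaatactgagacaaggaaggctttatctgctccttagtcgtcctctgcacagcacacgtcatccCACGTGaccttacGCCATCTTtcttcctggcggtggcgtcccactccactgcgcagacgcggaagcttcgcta
Mrpl41, chr2:24975069-24975348, minus strand: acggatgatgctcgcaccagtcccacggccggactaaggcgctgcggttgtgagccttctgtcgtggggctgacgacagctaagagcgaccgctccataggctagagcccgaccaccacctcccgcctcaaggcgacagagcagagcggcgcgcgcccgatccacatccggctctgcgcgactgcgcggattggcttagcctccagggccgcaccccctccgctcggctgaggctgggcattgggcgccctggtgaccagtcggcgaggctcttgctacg
Mrpl24, chr3:87919294-87919573, plus strand: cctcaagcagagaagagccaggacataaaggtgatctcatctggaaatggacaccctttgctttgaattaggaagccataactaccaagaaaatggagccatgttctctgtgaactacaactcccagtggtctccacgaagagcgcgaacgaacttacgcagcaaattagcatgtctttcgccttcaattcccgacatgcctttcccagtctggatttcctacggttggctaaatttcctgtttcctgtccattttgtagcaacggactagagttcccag

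Other parts of the same machinery were set beside the family. The 7 mitochondrial ribosome proteins with other symbols had 4 lower in the double mutant and 3 in the Asb2 cKO, with Ict1, a release factor built into the ribosome, at -0.75 and -0.77 (log2). Assembly factors had 12 of 25 lower in the double mutant and 8 of 25 in the Asb2 cKO, with 0 higher. Fastkd2, an RNA-binding protein of ribosome assembly, stood at -0.77 and -0.89, and Mrm1, which methylates the ribosomal RNA, at -0.69 and -0.64. Translation factors had 5 of 13 and 4 of 13 lower, led by Tsfm (-1.07 in the double mutant, -0.95 in the Asb2 cKO) and Gfm1 (-0.81 and -0.92), both elongation factors. Nearer to the shares of all genes (16.7% lower in the double mutant, 10.9% in the Asb2 cKO), mitochondrial tRNA synthetases had 5 of 19 lower (26.3%) and 2 higher in the double mutant and 4 lower (21.1%) in the Asb2 cKO. The factors that transcribe and process mitochondrial RNA had 6 of 24 (25%) and 4 of 24 (16.7%) lower, with 0 higher, and the mitochondrial RNA polymerase Polrmt fell in the double mutant (-0.55, limma, adjusted p = 0.0062).

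The mRNAs that the mitochondrial ribosome translates fell as well. Of those in the tables, 7 of 8 tested fell in the double mutant (median -1.35) and 6 of 7 in Asb2 cKO hearts (median -0.93). Of all genes, 16.7% fell in the double mutant and 10.9% in Asb2 cKO hearts. In Flna-labelled hearts 0 of 7 passed, but the median was -1.04. All 7 lay below every control library, as did 8.71% of all genes. The mRNAs summed to 1966 to 2856 CPM in the double mutant, 2861 to 3245 in the Asb2 cKO, 3003 to 3869 in Flna-labelled hearts and 5563 to 8289 in the control, so the Flna-labelled group stood near the Asb2 cKO. mt-Nd1, a subunit of complex I, had 342, 366 and 414 CPM in the double mutant, 435, 411 and 442 CPM in Asb2 cKO hearts, 589, 660 and 773 CPM in Flna-labelled hearts, and 1366, 1528 and 1107 CPM in the control. The control libraries lay far above all others. mt-Nd3, the eighth, stood at 1.98, 2.61 and 2.23 CPM in the double mutant and is listed at 0 in the Asb2 cKO and control libraries, where mt-Nd1 is abundant, so no direction is read from it. Of the ribosomal RNAs, mt-Rnr1 rose in the double mutant (0.67, limma, adjusted p = 0.02) and the Asb2 cKO (0.46, adjusted p = 0.026) and mt-Rnr2 passed in neither.

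The nuclear-encoded subunits of the respiratory chain fell in similar numbers, 55 of 72 in the double mutant (median -0.53) and 59 of 72 in the Asb2 cKO (median -0.65), with Ndufv3 the gene that rose in both. Of all genes, 16.7% fell and 15.6% rose in the double mutant, and 10.9% fell and 10.7% rose in the Asb2 cKO. Atp5g1, of the ATP synthase, stood at -1.09 and -1.12 (log2). In the double mutant against the Flna-labelled group 11 of 72 fell and 2 rose (median -0.14), beside 38 of 75 and 1 for the mitochondrial ribosomal proteins. Of all genes in that comparison, 16.3% fell and 15.1% rose, so the 11 of 72 stood near the share of all genes. Cytosolic ribosomal protein genes had 5 of 77 lower in the double mutant (median 0.02) and 4 of 77 in the Asb2 cKO (median -0.06), and in the double mutant against the Flna-labelled group 3 fell and 16 rose. Of 14 regulators of mitochondrial genes, 2 fell and 3 rose in the double mutant (14.3% and 21.4%) and 2 fell and 2 rose in the Asb2 cKO (14.3% each), shares near those of all genes. Hif1a (-0.75 in the double mutant, -0.78 in the Asb2 cKO) and Esrra (-0.55, -0.61) fell in both, Sp1 (0.56, 0.62) and Mycn (0.53, 0.49) rose in both, and the coactivator gene Ppargc1b rose in the double mutant (0.74, limma, adjusted p = 0.0066) and stood at 0.27 in the Asb2 cKO without passing. Gabpa (0.05, -0.01), Yy1 (0.17, 0.08) and Nrf1 (-0.16, -0.10) did not pass.

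Markers of some other cells moved with these groups, while other marker counts stood near the shares of all genes. Of all genes, 16.7% fell and 15.6% rose in the double mutant against the control. In the Asb2 cKO against the control 10.9% fell and 10.7% rose. In the double mutant against the Flna-labelled group 16.3% fell and 15.1% rose. In Flna-labelled hearts against the control 0.0432% fell and 0.0288% rose. The 12 primitive erythroid markers, globins among them, fell in 12 of 12 in both the double mutant and the Asb2 cKO against the control and in 4 of 12 in Flna-labelled hearts. Their summed level was 376 to 617 CPM in the double mutant, 527 to 1222 CPM in Asb2 cKO hearts, 3097 to 3965 CPM in Flna-labelled hearts and 7522 to 8131 CPM in the control. The group order of the erythroid sum is that of the mitochondrial ribosomal protein sum between the Asb2fl/fl groups, the Flna-labelled group and the control, and the part of these cells in the result was not tested. Pharyngeal epithelium markers summed to 337 to 543 CPM in the double mutant, 405 to 573 in the Asb2 cKO, 236 to 416 in Flna-labelled hearts and 216 to 292 in the control, and their part was not tested. Of 10 endocardial markers 5 rose in the double mutant against the control (median 0.43) and 5 against the Flna-labelled group (median 0.62), with sums of 1278 to 1705 CPM in the double mutant, 1030 to 1470 in the Asb2 cKO, 830 to 1055 in Flna-labelled hearts and 939 to 1154 in the control. Of 9 hepatic and yolk sac markers 8 fell in the double mutant against the Flna-labelled group (median -3.69), with sums of 25.9 to 43.4 CPM in the double mutant, 33.4 to 170.2 CPM in the Asb2 cKO, 151 to 559 in Flna-labelled hearts and 9.0 to 351 in the control. Epicardial markers had 2 of 6 lower in the double mutant against the Flna-labelled group. Neural crest markers had 1 of 7 higher in the double mutant against the control, near the 15.6% of all genes. The sums of both lists overlapped between those groups. The part of these cells was not tested either. Cardiomyocyte markers had 0 of 10 lower in the double mutant and the Asb2 cKO against the control, and 1 higher in the double mutant. In Flna-labelled hearts all 10 lay below 0 against the control, with a median of -0.52 and 0 past the threshold. In the double mutant against the Flna-labelled group 2 of 10 were higher (median 0.44), near the 15.1% of all genes. The part of cardiomyocyte content in the comparisons with the Flna-labelled group was not tested. Reads of overlapping genes may be shared, since the counting is not stated to use strand. In 16 members at least 10% of exon bases overlap another gene (GENCODE M21, GRCm38), with the largest share, 69.8%, between Mrps25 and Nr2c2. In the 58 members without such an overlap and with a match in that annotation, 40 fell in the double mutant (median -0.55) and 35 in the Asb2 cKO (median -0.52).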

How the data were processed

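Total RNA of 12 libraries was sequenced. The submitters' processing notes name STAR, HTSeq, edgeR and mm10, without versions; annotation and strand are not given in the sources used here. The authors deposited 4 tables, each for a pair of groups, whose expression values carry the unit signal. They are called CPM, but columns sum to 942334 to 1051801, so they are CPM on a scaled library size. All values (100.0%) were whole reads within 0.01 read. The plan had assumed CPM. Libraries in several tables differed by at most 4.43e-06 CPM, and the tables were joined by gene. The authors' fold changes are in log2; their deposited p-value and FDR columns list 54 members lower and 0 higher at an FDR under 0.05 in each of the Asb2 cKO and the double mutant against the control. A further 12 columns without headers were not used.

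Groups were compared with limma 3.58.1 (trend, robust; R 4.3.3) on log2(CPM + 0.5), which understates changes of low genes, over genes that averaged 1 CPM or more in the 6 libraries, at an adjusted p under 0.05; the interaction used 12 libraries. The 95% intervals come from the same fit. Code was tested on simulated data. Recovered reads were tested with edgeR 4.0.16 and DESeq2 1.42.0 as alternatives, beside other pseudocounts, filters, scalings and fits, a joint fit of the 4 groups with and without log2(Xist CPM + 0.5) as a covariate, since the labels give no embryo sex, and leaving out each library. In all 12 pairs of replicates libraries differed by more than sampling noise (lowest mean chi-square per gene 20.3). Members and gene lists were chosen with earlier results of these data known. Named are up to 12 members per direction and comparison with the smallest p (5 where fewer pass), those with the highest and lowest levels per kilobase, and members known for the stalk, the decoding centre, the S18 family or human heart disease; Mrpl39 and Mrpl45 and the list of members never called were named after their values were seen. The symbol rule left out 4 pseudogene names, of which Mrpl23-ps1 averaged 32.6 CPM; the counting of reads shared with such copies is not known. Positions came from GENCODE M21, in which 74 of 75 members were found; promoters came from RefSeq.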

Additional observations from a re-analysis of the deposited data

Results flagged for a closer look

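Mrps10, a protein of the small-subunit head, had 22.4, 26.9 and 21.6 CPM in the double mutant, 16.8, 19.9 and 20.6 CPM in Asb2 cKO hearts, 20.2, 18.3 and 20.3 CPM in Flna-labelled hearts, and 26.7, 20.6 and 21.3 CPM in the control. Every double-mutant library lay above every Flna-labelled library. Every Asb2 cKO library lay below the lowest control library (Asb2 cKO replicate 3 and control replicate 2 both round to 20.6 CPM), as for 21.5% of all genes. The values of the contrast of Asb2fl/fl with Asb2fl/+ thus lay in opposite directions with and without the Flna label. Mrps10 was picked from the 75 members for this pattern in the same libraries, and it passed in neither contrast. The interaction was 0.51 ± 0.20 on the log2 scale (limma, adjusted p = 0.47) and did not pass. Groups of 3 libraries are too small for the test of single outlying samples, which was not applied.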

How the results depend on the processing

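In the Asb2 cKO against the control, 47 members were called; the count was 26 with limma without trend or robust, 23 with the replicate number as a block and 18 to 45 leaving out each library in turn; the cause was not tested. The direction of the members' median held in the alternatives run in all comparisons with the control and with the Flna-labelled group; between the double mutant and the Asb2 cKO it ranged from -0.05 to 0.09. In the double mutant against the control the median was -0.43 with the gene length trend removed, and the cause of the difference was not tested. In the double mutant against the Flna-labelled group 23 to 32 members were called leaving out a library. DESeq2 called 1 member in the Flna-labelled group against the control. Calls held in all 18 alternatives for 16 of 47 members in the Asb2 cKO, 35 of 54 in the double mutant against the control and 22 of 39 in the double mutant against the Flna-labelled group. Same-numbered libraries correlated at -0.46 to 0.43, and in 0 of 6 pairs of groups did every correlation exceed 0.1. So few correlations cannot exclude pairing by number. Between the double mutant and the Flna-labelled group they were 0.27, 0.03 and 0.43. In that comparison 2815 genes were called lower and 2659 higher with the replicate number as a block, against 2281 and 2113 without it. Of 2816 values of single named genes under an alternative, 60 lost and 20 gained a call. These values include genes without a call in the main fit, which cannot lose one, and genes named for the smallest p. With 3 libraries a group, a fold change carried a 95% interval of about 0.36 to either side at the median in the Asb2 cKO. The alternative without members that share exon bases was chosen after seeing the data.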
